A study of Mus musculus with 8 samples.

Results

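Blood clotting and clot removal rest largely on proteins that the liver makes and secretes. The genes described here are 33 coagulation and fibrinolysis factors, taken by symbol: every probe set whose single gene symbol in the platform annotation was one of the 33 was used. Of these genes, 30 had a probe set of their own, 39 probe sets in all, among 8251 genes with such a probe set in the series. F11, F13a1 and Cpb2 had none. For 22 of the 30 genes at least 1 probe set had a mean log2 signal over the median of the array, a signal of 162.2, and was tested, among 4819 genes that were.

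The samples are livers of 8 female Ames dwarf mice (df/df), which ate standard pelleted food without restriction and were killed between 24 and 26 months of age. Ames dwarfs lack growth hormone, prolactin and thyrotropin. Each liver was hybridised to its own Affymetrix U74Av2 array, and livers are numbered 1 to 8 as in their titles. All 8 form 1 group, with no normal-sized mouse and no restricted diet analysed here, so levels, ranges and agreement between livers can be described, but no effect of the dwarf genotype.

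In coagulation, tissue factor and factor VII start a chain of proteases that ends in thrombin, which cuts fibrinogen to fibrin. Vitamin K is needed to carboxylate prothrombin, factors VII, IX and X and proteins C and S, and antithrombin, heparin cofactor II and protein C hold thrombin formation in check. Plasmin, made from plasminogen by tissue-type or urokinase-type activator, dissolves the clot. Hepatocytes make most of these proteins, while von Willebrand factor, thrombomodulin and tissue factor pathway inhibitor come mainly from endothelium. Fibrinogen is also an acute-phase protein, raised by interleukin-6 in inflammation.

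In the deposited values, by their brightest probe sets, the fibrinogen genes had the widest ranges between livers among the tested genes of the set. For Fgg this did not hold after median scaling. The tests of spread described below called no larger share of the set than of all probe sets. The 250 bases before each fibrinogen gene's start are printed here, from RefSeq on build GRCm38.p6 and 5′ to 3′ on the gene's strand. The 3 genes lie together on chromosome 3, Fga at chr3:83025903-83026152 (plus strand), Fgb at chr3:83049864-83050113 (minus strand) and Fgg at chr3:83007474-83007723 (plus strand). Capitals mark matches to CTGGGAA or CTGGAAA (STAT3-type elements), TTGCNNAA (C/EBP) and GTTAATNAT (HNF1), each searched on both strands.
Fga: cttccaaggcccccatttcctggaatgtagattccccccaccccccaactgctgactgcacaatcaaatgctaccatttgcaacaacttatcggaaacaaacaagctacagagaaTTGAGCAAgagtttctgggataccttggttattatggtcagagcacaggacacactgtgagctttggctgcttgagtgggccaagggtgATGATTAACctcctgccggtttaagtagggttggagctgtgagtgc
Fgb: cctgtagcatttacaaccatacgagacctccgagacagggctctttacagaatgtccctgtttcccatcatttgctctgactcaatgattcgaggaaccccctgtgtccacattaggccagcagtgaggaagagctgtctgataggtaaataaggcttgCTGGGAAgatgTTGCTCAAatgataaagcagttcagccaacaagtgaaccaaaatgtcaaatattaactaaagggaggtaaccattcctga
Fgg: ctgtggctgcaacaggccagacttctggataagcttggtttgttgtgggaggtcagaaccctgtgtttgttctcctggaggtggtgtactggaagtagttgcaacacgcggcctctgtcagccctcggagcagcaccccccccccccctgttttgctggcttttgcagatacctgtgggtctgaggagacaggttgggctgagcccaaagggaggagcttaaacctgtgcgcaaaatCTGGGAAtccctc
The Fga window held a C/EBP match, TTGAGCAA, from -135 to -128 and an HNF1 match, ATGATTAAC, from -46 to -38, counted back from the start, both on the reverse strand. The Fgb window held CTGGGAA from -91 to -85 and the C/EBP match TTGCTCAA from -80 to -73, and the Fgg window held CTGGGAA from -13 to -7. These are matches of letters, not measured sites. Among 32851 windows of the same length, 9.10% held CTGGGAA, 6.54% CTGGAAA, 9.56% TTGCNNAA and 0.740% GTTAATNAT, and the Fga, Fgb and Fgg matches did not overlap each other.

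Among the tested genes of the set, each by its brightest probe set, the 3 fibrinogen chains had the widest ranges in the deposited values. After median scaling Fga and Fgb stayed widest, but Fgg (1.71-fold) fell below Serpinf2 (1.88-fold), F7 (1.8-fold) and Klkb1 (1.74-fold). Without liver 5 the range of Fgg was 1.34-fold. Fga, which encodes the Aα chain, had signals of 5342.9, 8964.0, 6167.7, 5217.0, 3144.3, 5267.2, 5455.3 and 3383.3 in livers 1 to 8, a mean of 5368 ± 1793 (SD, n = 8). Liver 2 stood above the other livers and livers 5 and 8 below them, a 2.85-fold range, while the remaining 5 livers lay close together. Fgb, the Bβ chain, ran from 5370.6 in liver 5 through a median of 8524.5 to 11607.7 in liver 2, a 2.16-fold range. Its signals were 11163.8 in liver 4 and 9918.6 in liver 6, so livers 2, 4 and 6 were at the top. Fgg, the γ chain, ran from 5702.1 in liver 5 through 8605.1 to 10472.1 in liver 4, a 1.84-fold range. All 3 chains thus had their lowest signals in livers 5 and 8, and this pair of livers held the lowest signals of the 3 chains also after median scaling and after quantile normalization.

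Spread was tested in 2 ways over all 6211 tested probe sets, with Benjamini-Hochberg adjustment at 0.05. One test asked whether a probe set varied more than is typical of probe sets as bright as it. It called 2 of the 27 tested probe sets of coagulation and fibrinolysis genes, Fga (SD of log2 signal 0.48 against a typical 0.21, adjusted p = 0.000233 by the chi-square test across all probe sets) and Fgb (0.37 against 0.21, adjusted p = 0.0259). Fgg was not called (0.25 against 0.21, adjusted p = 0.621). The test called 11.3% of all tested probe sets, so 2 of 27 is no more than the background. The other test, limma's variance prior, called 0 of the 27 and 0% of all. With limma, 1 of the 27, Fga, had an unadjusted p under 0.05 (0.0356), as did 425 of the 6211 (6.84%), and the smallest adjusted p was 0.652 among the 27 and 0.0597 overall. Both calls rested on single livers: without liver 2 the count was 0 of 27, and without liver 5 or after median scaling only Fga was called.

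**Figure D1:**
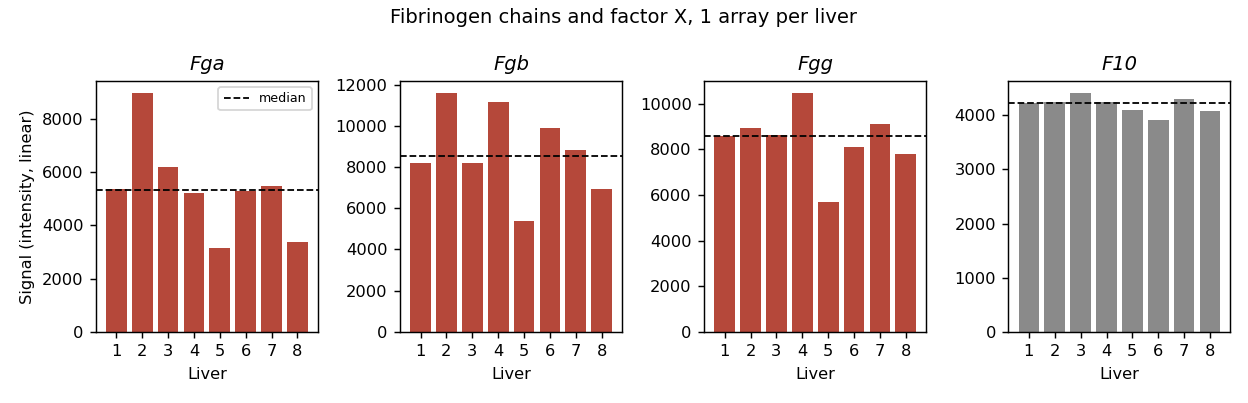
Signal (linear intensity, vertical axis from 0) of Fga, Fgb, Fgg and F10 in livers 1 to 8, 1 bar per array, with the median over livers as a dashed line. The 3 fibrinogen chains are lowest in liver 5 and next lowest in liver 8, while F10 stays between 3907.5 and 4412.3.

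The chains of fibrinogen tracked one another in part. Fgb and Fgg correlated across the 8 livers with Pearson's r = 0.859 (exact permutation p = 0.00739, adjusted 0.0544) and Spearman's rho = 0.738 (exact permutation p = 0.0458, adjusted 0.183). Without livers 2 and 5, the farthest from the Fgb median, r was 0.736, and it was 0.657 within arrays 1 to 4 and 0.866 within arrays 5 to 8. Fga and Fgb gave r = 0.828 (exact permutation p = 0.0136, adjusted 0.0544) and rho = 0.548 (exact permutation p = 0.171, adjusted 0.274). Without the same livers r was 0.529, and within arrays 1 to 4 and 5 to 8 it was 0.477 and 0.931. Fga and Fgg gave r = 0.659 (exact permutation p = 0.0771, adjusted 0.132) and rho = 0.571 (exact permutation p = 0.151, adjusted 0.274), with 0.449 without livers 2 and 5 and -0.32 and 0.804 within the same sets of arrays. Liver 5, low in all 3 genes, carried much of these relations: without it r was 0.648 for Fgb with Fgg, 0.717 for Fga with Fgb and 0.355 for Fga with Fgg, against 0.904, 0.777 and 0.760 without liver 2. In all, 8 pairs of genes were run and the adjusted values are over 8. None passed 0.05, although Fga with Fgb, Fgb with Fgg, and protein C with protein S passed (0.0476, 0.0476 and 0.0479) when adjusted over the 7 pairs that have a pooled r.

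Other genes followed Fgb more closely than its partner chains did. Of all tested genes, the 5 with the highest r to Fgb over the 8 livers were Oga, the enzyme that removes O-GlcNAc (r = 0.978), Atp5k, a subunit of ATP synthase (0.945), Psmc6, a proteasome subunit (0.941), Rer1, a sorting receptor of the early secretory pathway (0.940), and Tspan31, a tetraspanin (0.939). Each was lowest in liver 5. Fgg came 45th and Fga 74th in that order, which is a description, since these genes were picked as the highest of all.

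Saa3 and Hp, both acute-phase genes, did not share the liver order of fibrinogen. Saa3, an inducible serum amyloid, had signals of 6487.9, 15525.5 and 9793.2 in livers 1, 4 and 8 and between 165.5 and 473.3 in the other livers. The livers fell into separate groups for Saa3, so no correlation with Fgb was computed over all 8. Among the livers high in Saa3, Fgb was 8214.4 in liver 1, 11163.8 in liver 4 and 6945.1 in liver 8, below, above and below its median. Hp, haptoglobin, ran only from 19164.9 to 23595.6, and its r with Fgb was -0.465 (exact permutation p = 0.243, adjusted 0.278) with rho -0.381 (exact permutation p = 0.36, adjusted 0.411). That r was -0.195 without livers 2 and 5, and -0.434 and -0.874 within arrays 1 to 4 and 5 to 8. After quantile normalization it was -0.007.

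The vitamin K-dependent factors had a median range of 1.46-fold over 6 genes, against 1.61-fold for all tested genes. F7 (1.70-fold) and Pros1 (1.64-fold) had wider ranges than that. The test against the typical spread called 0 of the 6, beside 10.2% of all tested genes. In groups as small as these, 0 called is not read as a result. F2, prothrombin, the precursor of thrombin, ran from 8639.1 in liver 8 through 10029.3 to 11423.0 in liver 2. F7, factor VII, the protease that tissue factor binds, ran from 2743.2 in liver 4 through 3252.4 to 4650.2 in liver 1. F9, factor IX, which activates factor X, ran from 2170.2 in liver 4 through 2843.1 to 3254.6 in liver 3. For F9, liver 4 stood apart, since the next lowest liver was at 2796.6. F10, factor X, the protease that cleaves prothrombin, had the narrowest spread of all the tested coagulation and fibrinolysis probe sets: 3907.5 in liver 6, a median of 4233.8 and 4412.3 in liver 3, a 1.13-fold range. Its SD of log2 signal, 0.055, was at percentile 0.0966 of the SDs of all tested probe sets. The narrow range belongs to 1 of its probe sets, because the dimmer one ran from 418.7 in liver 1 to 628.0 in liver 4 (1.5-fold, r between both 0.242). After median scaling the brighter probe set had a 1.26-fold range.

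Proteins C and S showed opposite livers at their extremes. Proc, protein C, which inactivates factors V and VIII, ran from 6814.2 in liver 8 and 7187.4 in liver 4 through a median of 8533.1 to 9741.9 in liver 5. Pros1, protein S, the cofactor of protein C, ran from 552.1 in liver 2 through 644.9 to 801.5 in liver 8 and 903.4 in liver 4. Livers 4 and 8 were thus the lowest for Proc and the highest for Pros1. The correlation was r = -0.793 (exact permutation p = 0.0205, adjusted 0.0547) with rho = -0.786 (exact permutation p = 0.0279, adjusted 0.183). It rested on these livers: without both r was -0.194, while within arrays 1 to 4 and 5 to 8, each of which holds 1 of them, it was -0.989 and -0.972. These livers also had the highest summed macrophage markers, 21471.3 in liver 4 and 14277.5 in liver 8, and the part of that in this relation was not tested. The inverse relation was not particular to protein C. Pros1 gave r = -0.891 with F2 and -0.807 with Vkorc1, and r = 0.577 with F2r, pairs that were not among those tested.

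**Figure D2:**
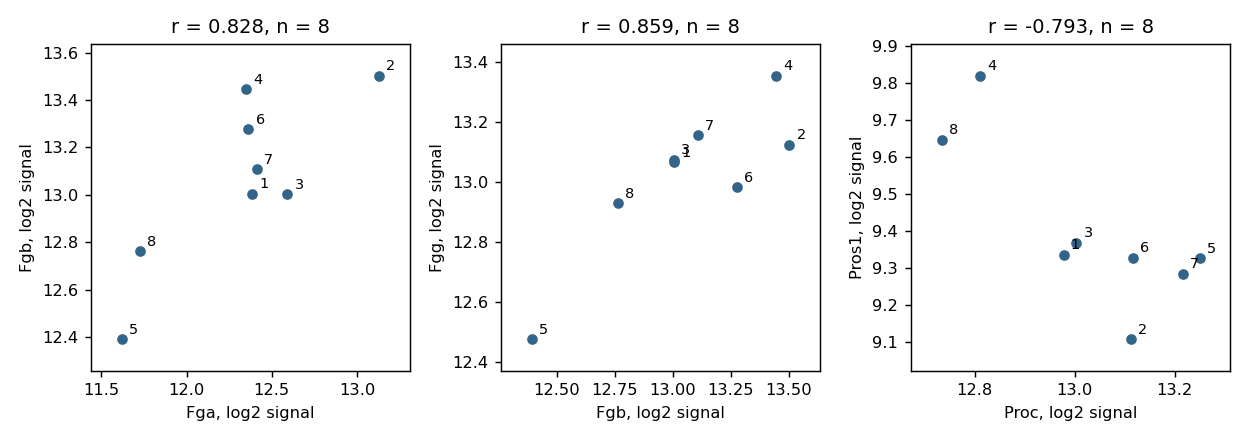
Log2 signal of Fgb against Fga, Fgg against Fgb and Pros1 against Proc, 1 point per liver, with the liver number beside it and Pearson's r over 8 livers above. Liver 5 is at the lower left of both fibrinogen plots, and livers 4 and 8 sit apart at the upper left of the protein C and S plot.

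The vitamin K cycle genes spanned ranges of 1.71-fold and 1.37-fold, with 0 called, beside 10.2% of all tested genes. Ggcx, the carboxylase itself, ran from 303.6 in liver 3 through 415.4 to 518.6 in liver 1. Vkorc1, the reductase that recycles vitamin K and is the target of warfarin, ran from 4512.3 in liver 4 through 5601.8 to 6200.6 in liver 5. Their r was 0.582 (exact permutation p = 0.133, adjusted 0.177) with rho 0.476 (exact permutation p = 0.243, adjusted 0.324). It was 0.676 without livers 3 and 4, and 0.570 and 0.716 within arrays 1 to 4 and 5 to 8.

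Among cofactors, initiator and cross-linker, only F5 and F13b were bright enough to test and 0 was called, beside 10.2% of all tested genes. F5, factor V, the cofactor of factor Xa, ran from 3866.9 in liver 8 through 4827.4 to 5639.1 in liver 1. F13b, the carrier subunit of the cross-linking factor XIII, ran from 2279.4 in liver 5 through 2970.5 to 3432.5 in liver 6. Tissue factor (F3), which starts coagulation, lay between 60.2 and 162.0. F8, factor VIII, the cofactor of factor IXa, lay between 76.3 in liver 7 and 185.8 in liver 5. Vwf, the carrier of factor VIII, lay between 27.4 and 123.5 on its brighter probe set and between 10.4 and 18.6 on the other.

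The contact and kinin genes had a median range of 1.36-fold over 4 genes, with 0 called, beside 10.2% of all tested genes. F12, factor XII, which starts the contact pathway, ran from 3008.1 in liver 3 through 3135.2 to 3760.8 in liver 5, a 1.25-fold range. Liver 5 stood above the rest, the next highest being 3315.3. Klkb1, plasma prekallikrein, which activated factor XII converts to kallikrein, ran from 1006.6 in liver 8 through 1206.3 to 1508.6 in liver 2. Kng1, the kininogen from which bradykinin is released, ran from 15297.0 in liver 5 through 17186.9 to 19860.0 in liver 4. Hrg, a histidine-rich plasma glycoprotein that binds heparin and plasminogen, ran from 5870.6 in liver 5 through 6896.9 to 8355.7 in liver 7.

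The 2 tested genes of the inhibitor group were among the steadiest in the deposited values. Serpinf2, an inhibitor described below with fibrinolysis, was not, with an SD of log2 signal of 0.27 against a typical 0.21. Serpinc1, antithrombin, ran from 11437.9 in liver 4 through 13516.1 to 15133.6 in liver 3, and Serpind1, heparin cofactor II, from 7753.3 in liver 6 through 8278.7 to 9823.5 in liver 3. Their ranges were 1.32-fold and 1.27-fold. Both SDs (0.13 and 0.11 on the log2 scale) were below the typical SD at their signal, 0.20 and 0.21. Both genes were highest in liver 3 with liver 2 next, also after median scaling. After quantile normalization Serpinc1 was highest in liver 1 and Serpind1 in liver 2. Their range moved with scaling, to 1.51-fold and 1.40-fold after median scaling and to 1.21-fold and 1.14-fold after quantile normalization. After median scaling Serpinc1 was no longer among the steadiest by range, since F2 (1.45-fold) and Kng1 (1.44-fold), among others, were narrower. Tfpi, the inhibitor of tissue factor and factor VIIa, lay between 20.2 and 68.5. Thbd, thrombomodulin, which turns thrombin into an activator of protein C, lay between 7.0 and 57.7 on 1 probe set and between 2.9 and 45.3 on the other.

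In fibrinolysis, the zymogen and its inhibitor passed the signal filter and the activators did not. Plg, plasminogen, ran from 22657.6 in liver 8 through 25524.6 to 31194.8 in liver 3 on its brightest probe set, whose identifier marks sequences shared with other transcripts. The unshared probe set ran from 15220.8 in liver 4 through 17421.6 to 18881.3 in liver 3, a 1.24-fold range, and was also highest in liver 3. Serpinf2, α2-antiplasmin, which blocks plasmin, ran from 5367.2 in liver 6 through 6887.7 to 8844.8 in liver 3. The r of Plg with Serpinf2 was 0.656 (exact permutation p = 0.0825, adjusted 0.132) with rho 0.667 (exact permutation p = 0.0831, adjusted 0.222). It was 0.294 without livers 3 and 5, and 0.386 and 0.912 within arrays 1 to 4 and 5 to 8. After quantile normalization it was 0.124 (exact permutation p = 0.764), and 0.872 with the mean of all tested probe sets of each gene. Plat, tissue-type plasminogen activator, lay between 31.7 and 139.3, and Plau, the urokinase-type activator, between 92.7 and 195.5. Plaur, the receptor of urokinase, was at 101.6 in liver 4 and between 17.6 and 25.8 in the other livers.

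F2r, the thrombin receptor PAR1, was the only gene with a main source other than hepatocytes that could be tested. Its brightest probe set ran from 568.9 in liver 3 through 778.4 to 928.0 in liver 8, a 1.63-fold range. For the other 8 genes whose probe sets were all dim, F3, F8, Plat, Plau, Plaur, Tfpi, Thbd and Vwf, a dim signal may be background, since no detection calls were at hand. Their fold ranges are therefore not compared with those of the tested genes.

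**Figure D3:**
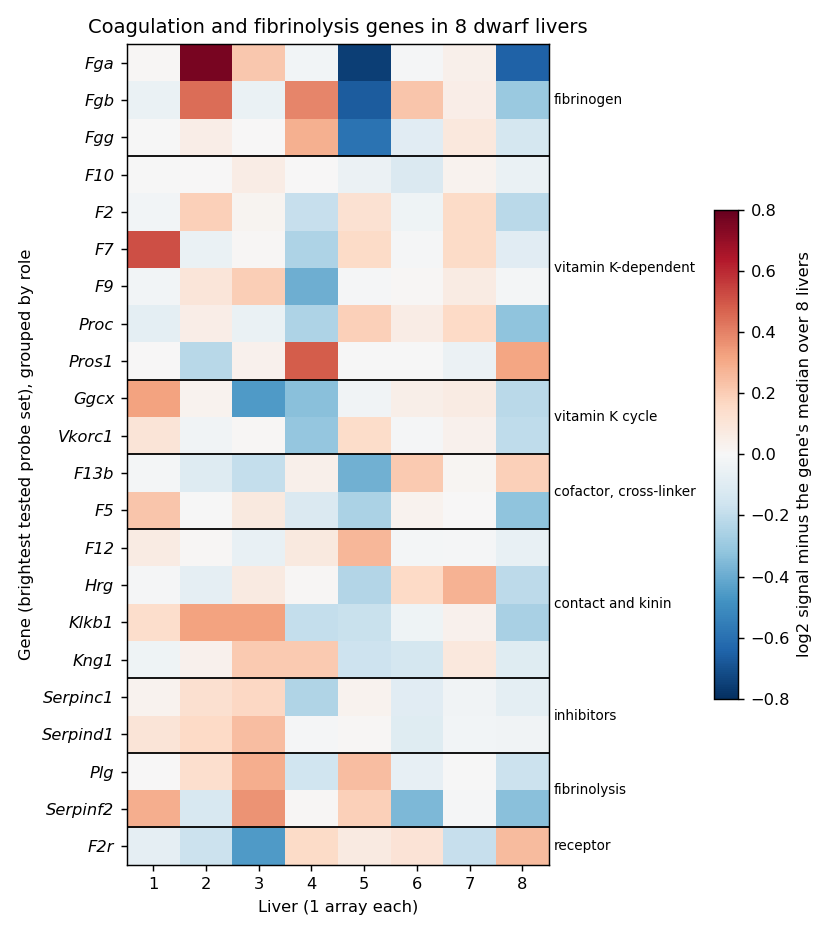
Log2 signal of the 22 tested genes minus each gene's median over the livers (colour scale from -0.80 to 0.80), with livers 1 to 8 across and genes grouped by role. The deepest blues are Fga, Fgb and Fgg in liver 5 and Fga in liver 8, and the deepest red is Fga in liver 2.

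As a set the tested genes varied about as much as others or less. The median range of the 22 was 1.48-fold and that of all 4819 tested genes 1.61-fold. The SD of 16 of the 22 was below the typical SD at their signal, as was that of 58.9% of all tested genes. The 21 genes of mainly hepatocyte source had a median range of 1.46-fold, and 15 of them were below the typical SD. Without fibrinogen, the remaining 18 had a median range of 1.43-fold, with the same 15 below the typical SD. The fibrinogen chains were the widest in these same values, so leaving them out could only narrow the spread. Genes were not independent, and no test was made over the set.

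**Figure D4:**
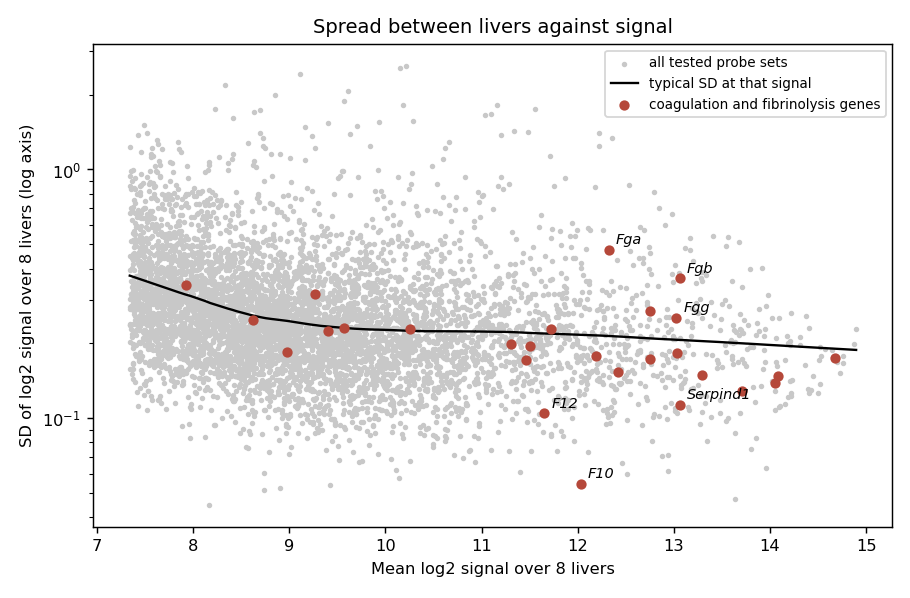
SD of log2 signal over 8 livers (log axis) against mean log2 signal for all 6211 tested probe sets in grey, with the typical SD at each signal as a line and the 27 probe sets of coagulation and fibrinolysis genes in red. Fga and Fgb lie above the line, and F10, F12 and Serpind1 lie well below it.

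Genes with more than 1 tested probe set gave a second reading of the liver order. Across the 8 livers, the r between probe sets of a gene was 0.790 for Plg, 0.734 for F7, 0.694 for F2r, 0.242 for F10 and -0.091 for Serpinf2. The median over these 5 pairs was 0.694, and over all 886 such pairs on the array 0.242. For F7, both probe sets were highest in liver 1 with liver 5 next. For Serpinf2, the brighter probe set was lowest in liver 6 and the other in liver 4, so the order of livers for this gene depended on the probe set. The dimmer tested probe sets of Serpinf2 and F2r had ranges of 2.19-fold and 2.11-fold, wider than the 1.84-fold of Fgg.

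Some livers held more of the lowest and highest signals than others. Of the 22 genes, 6 were lowest in liver 5 and 5 in liver 8, which are 27.3% and 22.7% against 16.0% and 12.1% of all tested genes. These counts depended on the scaling: they were 3 for liver 5 and 12 for liver 8 after median scaling, and 7 and 3 after quantile normalization. Liver 8 lay under the gene's own median for 19 of the 22, with a median of -0.157 on the log2 scale against -0.011 for all tested genes. After median scaling, which moved the median of all tested probe sets in liver 8 to -0.101, it was -0.285, and after quantile normalization it was -0.080. Liver 3 was highest for 6 of the 22 (27.3%), against 11.4% of all tested genes. It was highest for 1 after quantile normalization and for 8 after median scaling, so its place depended on the scaling.

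Genes grouped by the pair of livers that held their lowest signals. In F2, F7, Plg, Proc, Klkb1 and Vkorc1 these were livers 4 and 8, 6 of 22 genes (27.3%) against 11.5% of all tested genes. After median scaling there were 8 such genes and after quantile normalization 5. These orders are of the brightest probe sets. On the other tested probe set the lowest livers were 6 and 8 for F7, and 4 and 6 for Plg. In F5, Fga, Fgb, Fgg and Hrg they were livers 5 and 8, 5 of 22 (22.7%) against 4.69%, with 6 and 5 after the other scalings. The pair of livers 5 and 8 was chosen after the values were seen. No label sets livers 4 and 8 apart either, so neither pair is independent of these data. Pros1 and F2r had their highest signals in livers 4 and 8, 9.09% of the 22 against 9.73% of all tested genes. On the dimmer tested probe set of F2r, livers 6 and 1 were highest instead. No p is given for these counts, since the genes share livers.

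**Figure D5:**
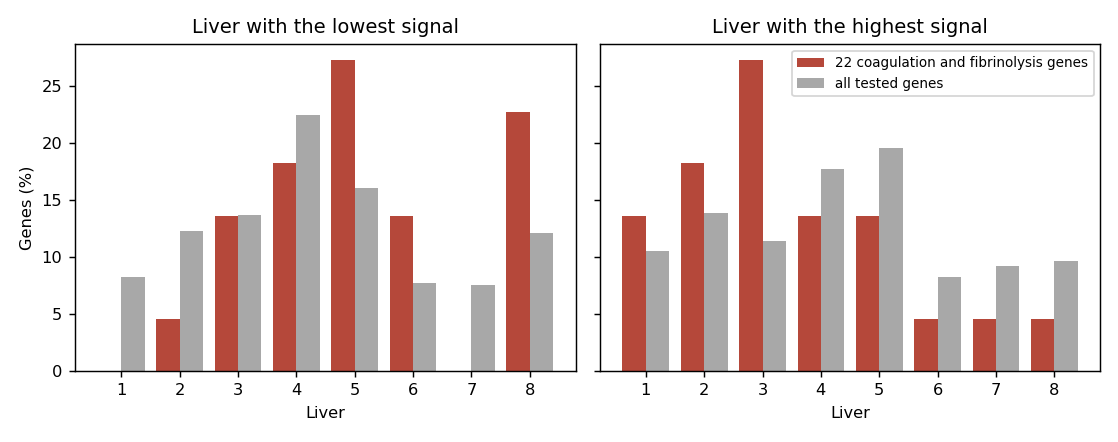
Share of genes (%) whose lowest signal (left) or highest signal (right) was in each of livers 1 to 8, for the 22 tested coagulation and fibrinolysis genes in red and all tested genes in grey. Livers 5 and 8 hold the lowest signal of 6 and 5 of the 22 genes in the deposited values, which become 3 and 12 after median scaling and 7 and 3 after quantile normalization.

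Livers 4 and 8 also differed from the others in their markers of macrophages. Of 10 such markers 8 were tested, all 8 were highest in liver 4, and their summed signal ran from 4067.2 in liver 7 to 14277.5 in liver 8 and 21471.3 in liver 4. In bulk tissue, more or fewer cells of a type and more or less RNA per cell cannot be told apart. Summed hepatocyte markers, 7 of 8 tested and with Alb, albumin, the brightest, ran from 86352.1 in liver 6 to 124779.7 in liver 3, with 86746.5 in liver 4 and 94037.8 in liver 8. Alb, Apoa1, Tat and Cps1 were highest in liver 3, while Ttr and Ass1 were highest in liver 1 and Hpd in liver 7. In liver 3, Hpd and Ass1 lay below their medians (393.1 against 407.45 and 988.8 against 1069.0). Endothelial markers, 6 of 10 tested, ran from 2895.8 in liver 7 to 4872.9 in liver 5 in sum, with 4861.1 in liver 2. Eng, the brightest of these, Ramp2 and Stab1 were highest in liver 5, Tie1 and Kdr in liver 2 and Cdh5 in liver 4. Stellate and fibroblast markers, 4 of 6 tested, ran from 4043.7 in liver 5 to 7126.3 in liver 4 in sum. The low sum in liver 5 came from Dcn, the brightest of them, at 3285.0. Des was highest in liver 5 (218.9), Col1a1 was lowest in liver 2 and Col3a1 in liver 3. Of the 4, 2 were called by the typical-variance test, the collagens Col1a1 and Col3a1. Of 7 platelet and 5 cholangiocyte markers, 0 passed the signal filter. The part of these marker levels in the liver order of the coagulation genes was not tested. With livers 4 and 8 left out, the typical-variance test called Fga and Fgb, beside 8.11% of all tested probe sets.

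Array measures moved as well. The median signal ran from 155.6 in liver 3 to 180.8 in liver 8, and the 28 pairs of arrays correlated at 0.907 to 0.973 over probe sets. Spiked-in transcripts gave a mean of 10.70 to 10.88 (log2) in the first 4 arrays but 10.18 to 10.46 in the last 4. The labels name no batch. With each gene centred within each of these sets of 4 arrays, Fga was called and Fgb was not, and their ranges were 1.90-fold and 1.85-fold.

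Other genes of haemostasis, a list of 33 with 25 represented and 15 tested, gave 2 calls (13.3%) by the typical-variance test, beside 10.2% of all tested genes. Both genes belong to a complex that binds tissue-type activator and plasminogen on cell surfaces. Anxa2, annexin A2, ran from 442.5 in liver 5 through 518.5 to 1144.1 in liver 4 (adjusted p = 0.0106 by the chi-square test across all probe sets). S100a10, its partner p11, ran from 541.2 in liver 7 through 919.9 to 1508.1 in liver 1 (adjusted p = 0.000453). Limma called neither. The median range of the 15 genes was 1.47-fold.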

How the data were processed

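Per the labels, liver RNA was hybridised to Affymetrix U74Av2 arrays and scanned. Not given in the sources used here are the image software, scaling target and detection calls. The deposited table holds 1 linear intensity per probe set and array, and was used as deposited: trimmed means of the arrays differed by 0.009%. Intensities under 11.2 were set to 11.2, log2 was taken, and 6211 of 12488 probe sets (66 controls left out) whose mean log2 signal exceeded the median were tested. A gene was represented by its brightest tested probe set. Variances were compared with limma 3.58.1 (R 4.3.3, prior degrees of freedom 4.90) and with a loess curve of typical variance (span 0.3, chi-square with 7 degrees of freedom), the latter added in earlier work after values had been seen. Correlations used log2 signals and all 40320 pairings. The members and lists were chosen with earlier results of these data known. All members were named, with lowest, median and highest signal for tested genes. The labels give 1 mouse per array and no repeat array, so biological and technical spread cannot be told apart, and the number of arrays limits precision. Promoter windows exclude the 50 bases after the start. Alternatives covered scaling, floor, filter, shared probe sets, left-out livers and centring within arrays 1 to 4 and 5 to 8.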

Additional observations from a re-analysis of the deposited data

Results flagged for a closer look

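Each of the 39 probe sets was examined for a liver far from the other 7. The measure was the gap to the nearest liver over the whole range, both on the log2 scale. By this measure 5 passed the 95% critical value for 8 samples, and on linear signals the gaps would differ. That is 12.8%, beside 11.7% of all 12422 probe sets without controls, and 2 of the 27 tested ones (7.41%), beside 435 of all 6211 tested. Chance flags about 1 group in 20. For F9, liver 4 was lowest, with a gap of 0.626 of the range. For F12, liver 5 was highest, with a gap of 0.565. For Plat, liver 1 was lowest, with a gap of 0.553. For Plaur, liver 4 was highest, with a gap of 0.782, at a signal of 101.6 that is below the level required for testing. For the dimmer Vwf probe set, liver 4 was lowest, with a gap of 0.615 after its signal of 10.4 was set to the floor of 11.2. Plat, Plaur and Vwf are dim and may be background. Liver 4 held 3 of the 5, the dim Plaur and Vwf probe sets among them. Of all tested genes, it held the lowest signal of 22.4% and the highest of 17.7%. Its share of all flagged probe sets was not counted.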

How the results depend on the processing

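Limma called 0 of the coagulation and fibrinolysis probe sets under each of the 18 alternatives. It also called at most 0.418% of all tested probe sets, so this 0 is not particular to the set. The typical-variance test called 2, and 1 (Fga) after median scaling or with genes centred within arrays 1 to 4 and 5 to 8; leaving out 1 liver at a time gave 0 (without liver 2) to 2, and 3 were called with no signal filter, Thbd being the addition. No pair of genes changed sign over all livers, although Fga with Fgg was -0.319 within arrays 1 to 4. Quantile normalization took Plg with Serpinf2 to 0.124 and Fgb with Hp to -0.007. With adjusted p-values under 0.05, median scaling gave r = 0.862 for Fga with Fgb and 0.866 for Fgb with Fgg, and quantile normalization 0.843 for Fgb with Fgg and 0.828 for Ggcx with Vkorc1. With no filter or a filter at the 25th percentile, 0.828 (Fga with Fgb), 0.859 (Fgb with Fgg) and -0.793 (Proc with Pros1) passed unchanged, as they did with the mean of all probe sets of a gene, where Plg with Serpinf2 passed at 0.872, and when adjusted over 7 pairs, a family chosen after seeing the data. Leaving out 1 liver gave 0.648 to 0.904 for Fgb with Fgg. Fold ranges moved by more than 1 SD in 17 of 138 recomputations over 8 probe sets; many alternatives cannot move a bright gene's range, so the rest show no stability. No paired analysis was possible because there is 1 group. Signals near background limit the dim genes.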
